A study of Mus musculus with 7 samples.

Results

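Histone-modifying and chromatin-remodelling enzymes were followed in the transcriptome of the tibialis anterior (TA), a fast-twitch muscle at the front of the lower leg, in wild-type (WT) mice and in mice without fast myosin-binding protein C (C2-/-). Members were all genes whose symbol begins with Kdm, Kmt, Kat, Hdac, Setd, Chd or Sirt followed by a digit, together with Ezh1, Ezh2, Ep300 and Crebbp. This rule found 68 of the 12239 genes in the table, or 0.556%, and used no measured value. They were 24 writers, 35 erasers and 9 remodellers. The writers were 15 genes of the methyltransferase families (Kmt, Setd, Ezh) and 9 of the acetyltransferase families (Kat, Ep300, Crebbp). The erasers were 17 genes of the demethylase family (Kdm), 11 of the zinc-dependent deacetylase family (Hdac) and 7 sirtuins (Sirt), and the remodellers were the Chd family.

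All animals were FVBN males aged 5 to 6 months in the labels, with 4 WT and 3 C2-/- libraries of oligo(dT)-selected RNA. The C2-/- allele is not restricted to a cell type, and in it a Neo cassette between LoxP sites stands in the place of Mybpc2 exons 2 to 22. The C2-/- animals carried no other labelled allele and neither group had a labelled treatment. The labels number the libraries within each group without naming animals, so the p-values measure the spread between these 7 samples.

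DNA in the nucleus is wound around histones, and chemical groups on the histone tails influence how readily a gene is read. Writers add methyl or acetyl groups to lysines, erasers take them off, and remodellers such as the Chd proteins use ATP to slide or evict nucleosomes. In skeletal muscle, class IIa deacetylases bind the MEF2 transcription factors and are known for restraining slow-fibre and oxidative genes, while Ep300, Kat2b and Crebbp act as co-activators of the myogenic factors. Several families also have members that work on other proteins or outside the nucleus, among them Setd3, which methylates a histidine of actin, Hdac6, a cytoplasmic tubulin deacetylase, and Sirt3, Sirt4 and Sirt5, which reside in mitochondria.

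The GC content of the transcripts bears on many of the results that follow, and 4 coding stretches show what that range looks like. Each is the 60-base stretch at the middle of the coding sequence of the longest protein-coding transcript in GENCODE M21 (build GRCm38), written 5′ to 3′ on the coding strand with G and C in capitals. Sirt1 (chr10:63319005-63339035) and Kat6b (chr14:21499216-21672478) rose in C2-/- and have transcripts with a GC content of 44.0% and 48.0%. Hdac5 (chr11:102195747-102230172) fell and has a GC content of 58.8%, whereas Setd1b (chr5:123142040-123168630) rose with a GC content of 59.0%. The stretches cover coding bases 1075 to 1134 of Sirt1, 2779 to 2838 of Kat6b, 1516 to 1575 of Hdac5 and 2947 to 3006 of Setd1b.
Sirt1: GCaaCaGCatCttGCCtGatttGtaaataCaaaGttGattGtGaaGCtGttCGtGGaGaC
Kat6b: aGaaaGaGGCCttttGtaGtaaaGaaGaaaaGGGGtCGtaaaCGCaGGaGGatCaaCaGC
Hdac5: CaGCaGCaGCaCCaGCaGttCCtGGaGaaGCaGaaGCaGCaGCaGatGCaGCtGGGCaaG
Setd1b: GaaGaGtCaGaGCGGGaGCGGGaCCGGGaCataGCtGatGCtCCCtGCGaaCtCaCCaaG
Of the 60 bases, 25 are G or C in Sirt1, 27 in Kat6b, 36 in Hdac5 and 37 in Setd1b.

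Library depth differed between the groups. WT replicates 1 to 3 held 14929214 to 15464499 reads in the table. WT replicate 4 held 4683853 and the C2-/- libraries 2613277 to 4917936, so that 3 reads correspond to between 0.195 and 1.12 counts per 1000000 reads (CPM). Log2 values correlated between 0.984 and 0.988 among WT replicates 1 to 3, against 0.917 to 0.930 between them and WT replicate 4 and 0.872 to 0.918 among the C2-/- libraries. C2-/- replicate 2 had 1030 genes at 0 reads, and its quality weight in limma was 0.219 against 0.222 for WT replicate 4. C2-/- replicates 1 and 3 had weights of 0.59 and 0.42, and WT replicates 1 to 3 of 3.74 to 5.71. Mybpc2 itself lay between 12.4 and 12.8 log2 CPM in WT and between −0.47 and 1.67 in C2-/-, a log2 change of −11.82 ± 0.41 (SE, adjusted p by limma = 4.85e-07). The summed level of 6 fast muscle markers was 135900 to 166600 CPM in WT and 69050 to 88050 CPM in C2-/-, while that of 5 fibro-adipogenic markers was 329 to 437 CPM in WT and 1166 to 1223 CPM in C2-/-. Of the muscle markers 4 fell, and of the fibro-adipogenic markers 4 rose and 1 fell (limma), with no marker of either list at 0 in any library. The 3 measured satellite cell markers summed to 3.62 to 5.57 CPM in WT and 6.11 to 12.9 CPM in C2-/-, with 1 of them at 0 in a library, and the ranges of the endothelial, macrophage, Schwann cell, smooth muscle and adipocyte lists overlapped between the groups. The part of cell composition in the results on the enzymes was not tested, and in whole muscle fewer cells of a type and less RNA per cell cannot be told apart.

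In C2-/-, 15 of the 68 members rose and 19 fell, counting adjusted p under 0.05 and a change above 1.5-fold in a limma fit over all genes. These 34 members are 50% of the list, and the same threshold was passed by 45.2% of all genes (20.2% higher, 25.0% lower), so the members as a whole stood near the background. The groups did not overlap for 34 members, against 49.3% of all genes. The median log2 change was −0.31 in the members and −0.14 over all genes. When each library was centred on its median gene, the median over all genes moved to 0.02, and 18 members rose and 15 fell in place of 15 and 19.

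The 3 classes differed in the balance of their counts. Of the 24 writers, 7 rose and 5 fell, with a median log2 change of 0.21. Of the 35 erasers, 6 rose and 14 fell, with a median of −0.73. Of the 9 remodellers, 2 rose and 0 fell at this threshold in limma, which was also 0 at an unadjusted p under 0.05, with a median of −0.19. The difference between the classes was not tested.

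**Figure D1:**
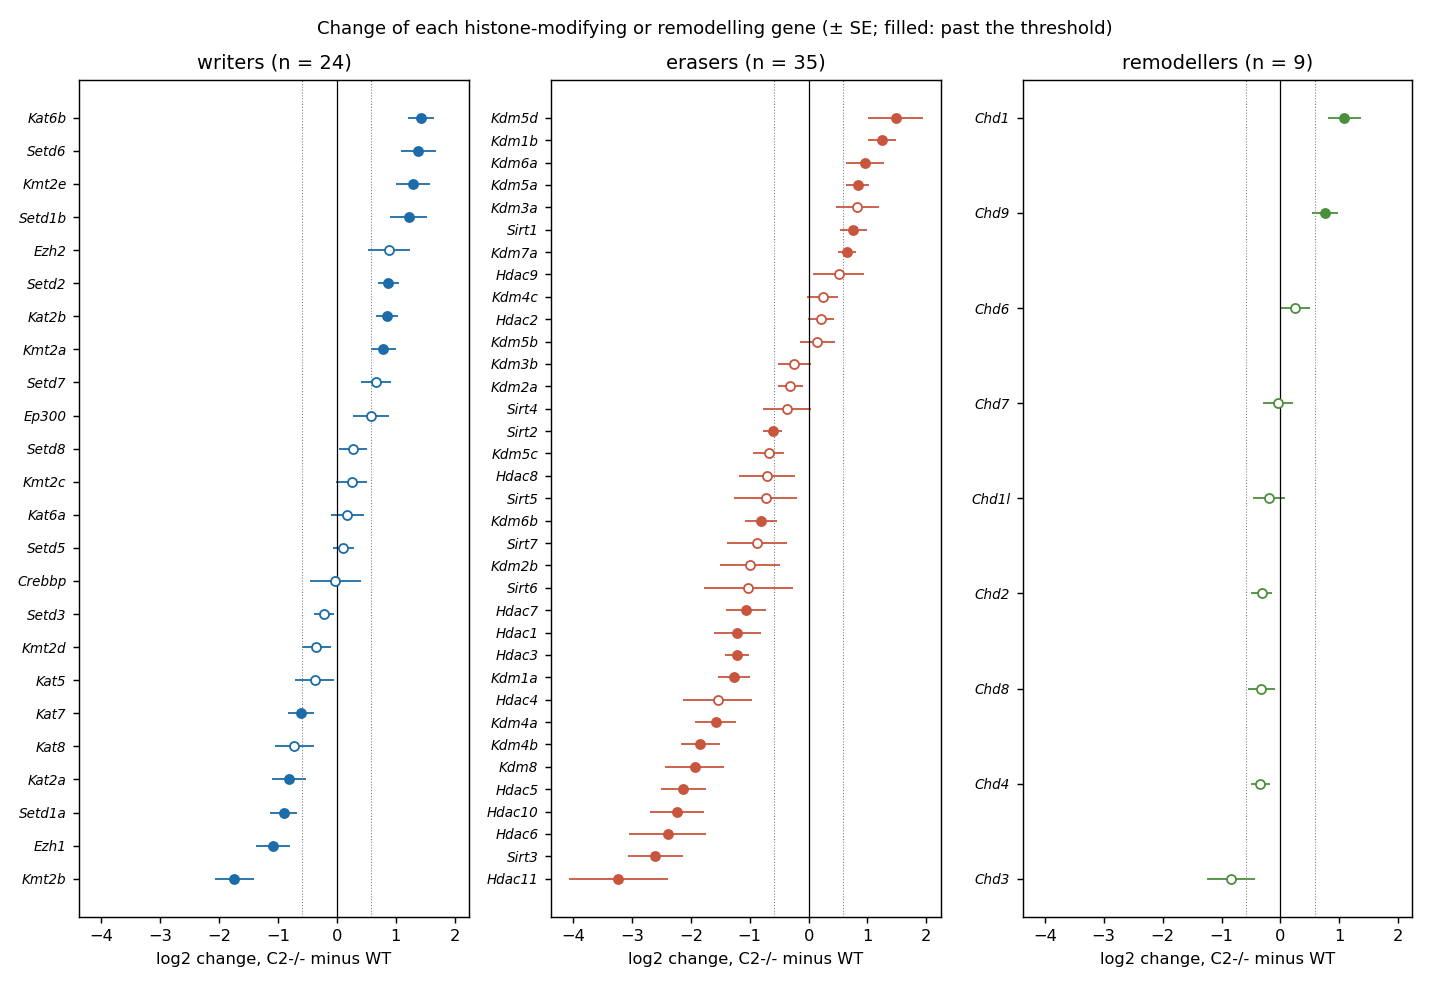
Log2 change of each of the 68 members (x axis, C2-/- mean minus WT mean of log2 CPM, ± SE from the limma fit, 4 WT and 3 C2-/- libraries), with writers, erasers and remodellers in separate panels, filled points for members past the threshold and dotted lines at a 1.5-fold change. Changes run from −3.23 in Hdac11 to 1.48 in Kdm5d, and the 7 Hdac genes past the threshold all lie left of 0.

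Transcript GC content accompanied the changes. Over the 68 members the log2 change and the GC content had a Spearman correlation of −0.69 (Pearson −0.66), close to the −0.68 over all genes, a description across genes that share the same 7 libraries. Of the 34 members below the median GC content of 50.9%, 13 rose and 3 fell, and of the 34 at or above it, 2 rose and 16 fell. These 2 were Setd1b and Setd6. The GC-poor members also had longer transcripts, with a median of 7364 bases against 4402.

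A second fit was therefore made on values in which the dependence on GC content within each library was replaced by its mean over the libraries. With this correction 11 members passed the threshold, 7 higher and 4 lower, against 20.6% of all genes (12.3% higher, 8.33% lower), and the Spearman correlation with GC content was 0.08. A total of 8 members passed the threshold in the same direction in both fits. They were Kat6b, Setd6, Kmt2e, Setd1b and Kmt2a, which were higher, and Hdac3, Kdm1a and Sirt3, which were lower. Another 25 passed without the correction only, Kmt2d and Hdac2 with it only, and Kdm6b passed in opposite directions. Depth and GC dependence differ between the groups, and their part and that of the genotype cannot be told apart in these libraries.

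**Figure D2:**
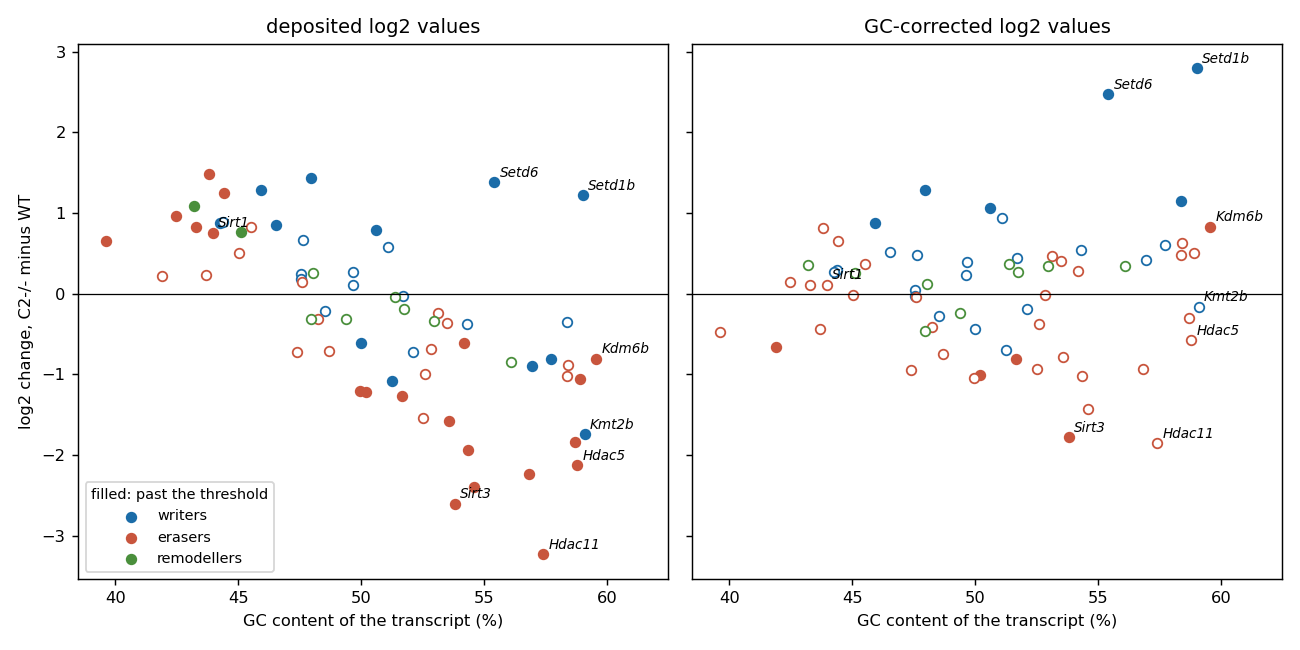
Log2 change of the 68 members (y axis) against the GC content of their transcript in percent (x axis), from the deposited values on the left and from GC-corrected values on the right, with filled points for members past the threshold. The downward trend on the left (Spearman −0.69) is near flat on the right (0.08), where Setd1b and Setd6 stand highest and Hdac11 and Sirt3 lowest.

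WT replicate 4 stood between the other WT libraries and C2-/- for many members. The median absolute difference between the C2-/- mean and WT replicate 4 was 0.53 over the members, against 0.89 from the mean of WT replicates 1 to 3. Of the 34 members past the threshold, 33 differed from WT replicate 4 in the direction of the fit, the exception being Kdm5d, and for 9 of them WT replicate 4 lay nearer the C2-/- mean than the mean of the other WT libraries. Without it, 38 members passed, 16 higher and 22 lower, which is 55.9% of them against 50.1% of all genes (23.5% higher, 26.6% lower). After GC correction without it, 16 passed, 12 higher and 4 lower, which is 23.5% against 25.7% of all genes (16.0% higher, 9.74% lower). Its depth was that of the C2-/- libraries, and the part of depth in this position was not tested.

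**Figure D3:**
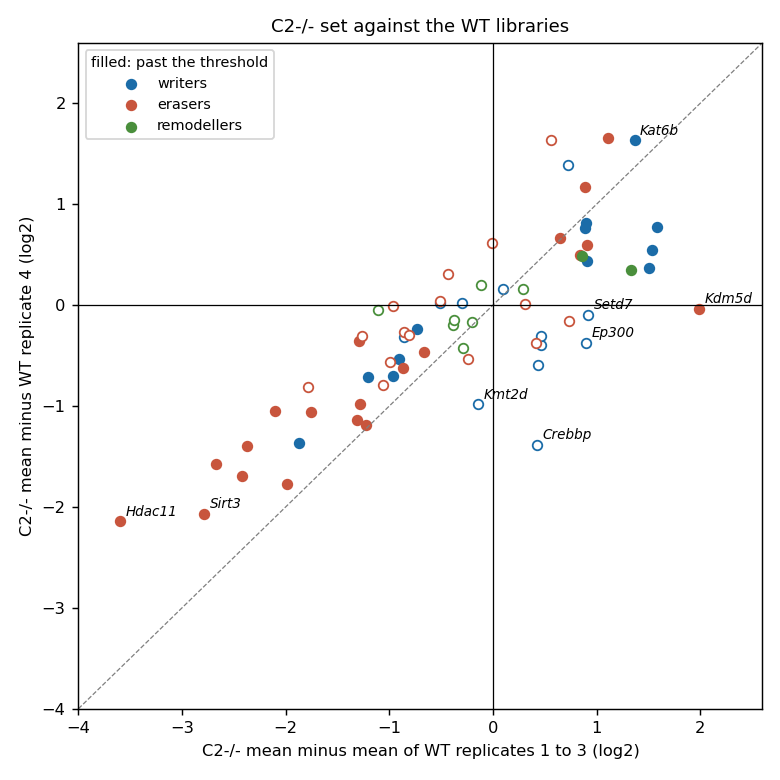
Difference of the C2-/- mean from WT replicate 4 (y axis, log2) against its difference from the mean of WT replicates 1 to 3 (x axis, log2) for the 68 members, with a dashed line of equality and filled points for members past the threshold. Most points lie nearer 0 on the y axis, Kdm5d lies at 0 on it, and Crebbp and Kmt2d lie well below it.

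Among the methyltransferase writers, 5 of 15 rose and 3 fell. Those that rose were Setd6, Kmt2e, Setd1b, Setd2 and Kmt2a, and those that fell were Kmt2b, Ezh1 and Setd1a. Kmt2a, Kmt2b, Kmt2c, Kmt2d, Setd1a and Setd1b are the catalytic subunits of the COMPASS complexes that place methyl groups on the histone H3 lysine of active promoters and enhancers. Without GC correction Setd1b and Kmt2a rose and Kmt2b and Setd1a fell, and with it Setd1b, Kmt2a and Kmt2d passed as higher.

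Setd1b measured 4.27, 4.04, 4.09 and 5.27 log2 CPM in WT replicates 1 to 4 and 5.92, 5.63 and 5.35 in the C2-/- libraries. All C2-/- values stood above all WT values, with WT replicate 4 just below the lowest of them. The log2 change was 1.22 ± 0.31 (SE, adjusted p by limma = 0.0109) and 2.79 ± 0.40 after GC correction (adjusted p = 0.00251), against its close relative Setd1a at −0.90 ± 0.23 (limma, adjusted p = 0.0104) and 0.42 after correction. Of the exonic bases of Setd1a, 52.3% overlap other genes, nearly all of them Gm49388 on the same strand, so its count is uncertain.

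Kmt2a, the founding MLL enzyme, stood at 4.90, 4.89, 4.73 and 5.30 log2 CPM in WT and at 5.90, 5.50 and 5.83 in C2-/-. The groups did not overlap, and the change was 0.79 ± 0.21 (SE, adjusted p by limma = 0.0125), or 1.06 after GC correction (adjusted p = 0.00779). Its paralog Kmt2b moved the other way, from 4.73, 4.68, 4.80 and 4.23 log2 CPM in WT to 2.22, 3.47 and 2.92 in C2-/-. The change of Kmt2b was −1.74 ± 0.33 (SE, adjusted p by limma = 0.00274), but −0.16 after GC correction (adjusted p = 0.804), for a transcript with a GC content of 59.1%. Kmt2d, the enhancer methyltransferase, gave 5.98, 6.16, 6.06 and 6.91 log2 CPM in WT and 6.06, 6.06 and 5.66 in C2-/-. The change of Kmt2d did not pass (−0.35, limma, adjusted p = 0.255), while its GC-corrected value of 1.15 did (adjusted p = 0.0392). In Kmt2d the C2-/- libraries lay close to WT replicates 1 to 3, and WT replicate 4 was the one set apart. Kmt2c and Setd5 had log2 changes of 0.25 and 0.11 and did not pass (limma, adjusted p = 0.449 and 0.632).

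Kmt2e, a reader-like relative of the MLL enzymes, rose from 5.42, 5.72, 5.57 and 6.56 log2 CPM in WT to 7.23, 6.67 and 7.41 in C2-/-. The change was 1.29 ± 0.29 (SE, adjusted p by limma = 0.00544) and 0.87 after GC correction (adjusted p = 0.0385), where the groups overlapped. Without the correction WT replicate 4 stood just below the lowest C2-/- library. Of the exonic bases, 9.31% overlap Srpk2 on the opposite strand, from which reads cannot be told apart where strand was not used in counting.

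Setd6, which methylates a subunit of NF-kappa-B among other proteins, gave 3.36, 3.48, 3.32 and 4.20 log2 CPM in WT and 4.60, 5.29 and 5.03 in C2-/-. Every C2-/- library exceeded every WT library, and the change was 1.38 ± 0.30 (SE, adjusted p by limma = 0.0048), or 2.47 ± 0.38 after GC correction (adjusted p = 0.00312). Its transcript of 1707 bases, with a GC content of 55.4%, is the shortest among the writers that rose. Setd2, which trimethylates histone H3 behind elongating polymerase, rose by 0.88 ± 0.18 (SE, adjusted p by limma = 0.00388) and had a change of 0.26 after GC correction.

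The Ezh enzymes, alternative catalytic subunits of Polycomb repressive complex 2 (PRC2), differed in sign. Ezh1, the form that predominates in adult muscle, measured 5.61, 5.57, 5.54 and 5.09 log2 CPM in WT and 4.98, 3.77 and 4.36 in C2-/-. The change of Ezh1 was −1.08 ± 0.29 (SE, adjusted p by limma = 0.0127), and −0.70 after GC correction did not pass (adjusted p = 0.0675). With WT replicate 4 also left out, the GC-corrected change of −0.77 passed (adjusted p = 0.0457). Ezh2, the form linked to dividing cells, measured 2.77, 2.87, 2.79 and 2.15 log2 CPM in WT and 3.48, 3.14 and 3.98 in C2-/-. The Ezh2 groups did not overlap, but its change of 0.89 ± 0.36 (SE) did not pass (limma, adjusted p = 0.062). It passed in 6 other settings, among them voom weights (0.87, adjusted p = 0.0436), median centring (1.05, adjusted p = 0.0328) and the omission of C2-/- replicate 2 (1.09, adjusted p = 0.0292). The GC-corrected value of Ezh2 was 0.29 (adjusted p = 0.601), and 0.07 with WT replicate 4 also left out (adjusted p = 0.883). Per kilobase of transcript and without GC correction, Ezh1 exceeded Ezh2 in WT, at 10.5 against 2.29 CPM per kb. In C2-/- they stood at 5.21 and 4.28 CPM per kb, also without the correction. GC-corrected means, not scaled to length, were 5.29 and 2.90 log2 CPM in WT and 4.59 and 3.19 in C2-/-. Of the 7 measured PRC2 partners out of 8 listed, Eed, Suz12, Rbbp4 and Rbbp7 rose and Phf1 fell, and after GC correction 1 rose, Eed, and 1 fell, Mtf2.

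Writers with the highest levels per length, taken without GC correction, were not the ones that changed most. Setd3, the actin histidine methyltransferase, led the members in WT at 79.9 ± 9.7 CPM per kb (SD, n = 4), followed by Setd8, which monomethylates histone H4, at 74.7 ± 23.5 (SD) and Setd7 at 65.8 ± 26.8 (SD), which do not differ beyond their spread. In C2-/- the order was Setd7 at 99.7 ± 13.8 (SD, n = 3), Setd8 at 88.8 and Setd3 at 69.0 CPM per kb. On the log2 scale Setd3 had a change of −0.22 (95% interval −0.60 to 0.16) and Setd8 of 0.27 (−0.27 to 0.82), and neither passed.

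Setd7, a lysine methyltransferase of histone and other proteins linked to muscle differentiation, measured 8.58, 8.68, 8.54 and 9.62 log2 CPM in WT and 9.42, 9.40 and 9.74 in C2-/-. WT replicate 4 fell among the C2-/- values. The change of 0.67 ± 0.26 (SE) did not pass (limma, adjusted p = 0.0563), but was 0.92 without WT replicate 4 (adjusted p = 0.000775). It also passed with voom weights (0.69, adjusted p = 0.0301), median centring (0.83, adjusted p = 0.0311) and library quality weights (0.91, adjusted p = 0.00314), and was 0.35 under quantile normalization (adjusted p = 0.213). Ep300 measured 5.71, 5.88, 5.70 and 7.03 log2 CPM in WT and 6.79, 6.46 and 6.73 in C2-/-. The change of Ep300 was 0.58 ± 0.31 (SE, adjusted p by limma = 0.143), and 0.90 without WT replicate 4 (adjusted p = 0.0013).

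Among the 9 acetyltransferase writers, Kat6b and Kat2b rose and Kat2a and Kat7 fell. Kat6b, a MOZ-family acetyltransferase, rose from 4.06, 4.40, 4.23 and 3.96 log2 CPM in WT to 5.42, 5.84 and 5.53 in C2-/-. WT replicate 4 was the lowest WT value here, and the groups were more than 1 log2 unit apart. The change of Kat6b was 1.43 ± 0.22 (SE, adjusted p by limma = 0.000995) and 1.29 ± 0.22 after GC correction (adjusted p = 0.00411). Its paralog Kat6a had a log2 change of 0.18 (limma, adjusted p = 0.619).

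Kat2b and Kat2a are the alternative acetyltransferases PCAF and GCN5 of the SAGA complex, and without GC correction they changed in opposite directions. Kat2b rose from 6.96, 6.99, 6.95 and 7.08 log2 CPM in WT to 7.71, 7.53 and 8.30 in C2-/-. No C2-/- value reached down to the WT range, and the change was 0.86 ± 0.19 (SE, adjusted p by limma = 0.00562), with 0.52 after GC correction (adjusted p = 0.0563). Kat2a fell by 0.81 ± 0.29 on the log2 scale (SE, adjusted p by limma = 0.0391). After GC correction the value of Kat2a turned to +0.60 (adjusted p = 0.251), the sign of Kat2b, and neither passed. Kat7 fell by 0.61 (limma, adjusted p = 0.047), while Kat5 and Kat8 had changes of −0.38 and −0.72 and did not pass. The calls of Kat2a and Kat7 were lost without WT replicate 1, 2 or 3 or C2-/- replicate 1 or 3, at −0.83 to −0.54 and −0.58 to −0.54.

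Crebbp, the co-activator paired with Ep300, measured 3.85, 4.01, 4.02 and 5.77 log2 CPM in WT and 4.31, 4.48 and 4.36 in C2-/-. All C2-/- values lay above WT replicates 1 to 3 and far below WT replicate 4. The change was −0.03 with a 95% interval of −0.98 to 0.93 (limma, adjusted p = 0.964), and 0.43 without WT replicate 4 (adjusted p = 0.0983). With GC correction and WT replicate 4 left out it was 0.94 and passed (adjusted p = 0.0134). After GC correction, 6 of the 24 writers rose and 0 fell at the threshold in limma, with 1 falling at an unadjusted p under 0.05. Over all genes 12.3% rose and 8.33% fell in that fit. With WT replicate 4 also left out 10 writers rose and 1 fell, against 16.0% and 9.74% of all genes. The difference between the writers and all genes was not tested.

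**Figure D4:**
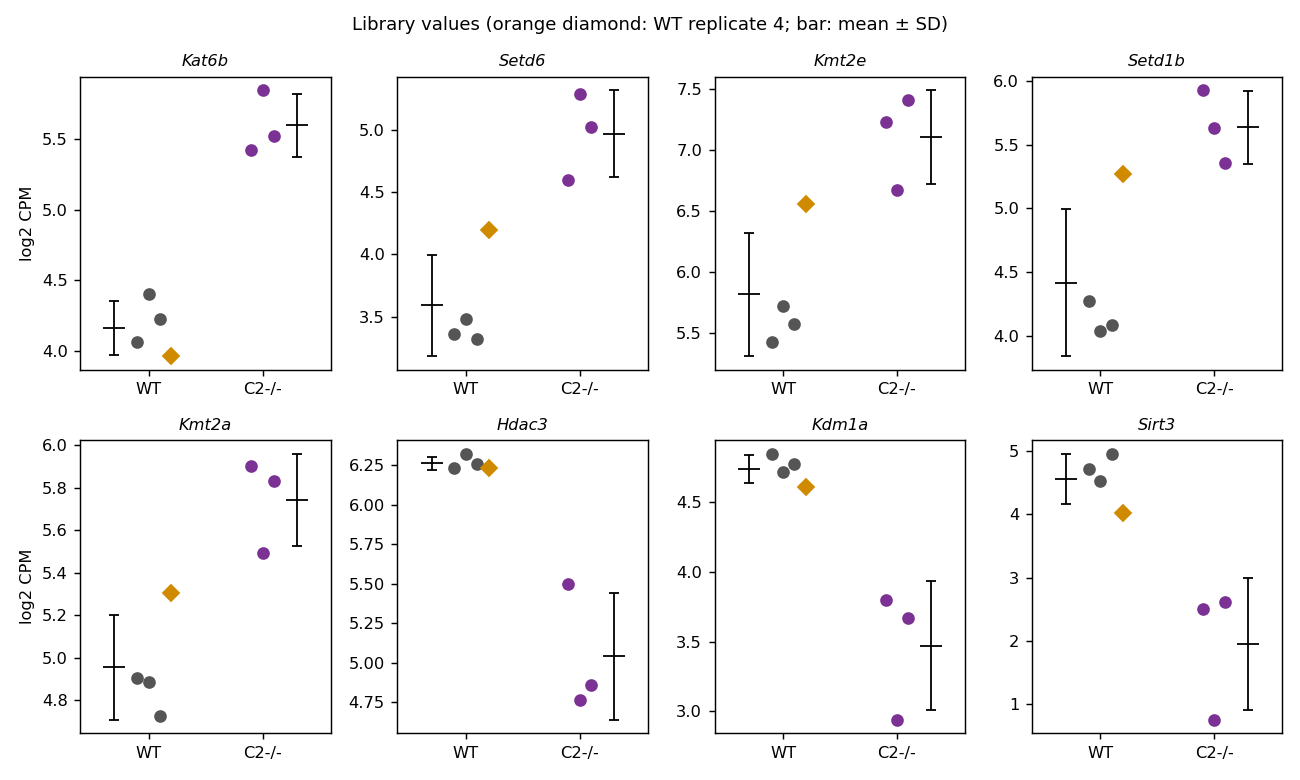
Log2 CPM in each library of the 8 members past the threshold in the same direction with and without GC correction (y axis, a separate scale for each gene), with circles for libraries, an orange diamond for WT replicate 4 and bars for the group mean ± SD (n = 4 WT, n = 3 C2-/-). In these values without GC correction, the C2-/- libraries of all 8 genes lie on 1 side of all WT libraries. WT replicate 4 is the WT library nearest to them in every gene shown but Kat6b, although in Hdac3 it is level with WT replicate 1. After GC correction the groups of Kmt2e overlapped.

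The Hdac deacetylases gave counts in 1 direction. Of the 11 genes, 7 fell and 0 rose at the threshold in limma, which was also 0 at an unadjusted p under 0.05, with a median log2 change of −1.22, where over all genes 25.0% fell and 20.2% rose. Those that fell were Hdac11, Hdac6, Hdac10, Hdac5, Hdac3, Hdac1 and Hdac7. After GC correction the median was −0.94 and 2 passed, Hdac3 and Hdac2, both lower, which is 18.2% against 20.6% of all genes. At an unadjusted p under 0.05 in limma, 7 of the 11 were lower, against 1988 of 12173 genes. With WT replicate 4 also left out, 1 of the 11 passed, or 9.09% against 25.7% of all genes.

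Hdac3, the catalytic subunit of co-repressor complexes of nuclear receptors, had the smallest WT spread of the 11 genes, at 6.23, 6.32, 6.26 and 6.23 log2 CPM, against 5.50, 4.76 and 4.86 in C2-/-. WT replicate 4 lay next to the other WT libraries, at the lower end of their values. The change was −1.22 ± 0.21 (SE, adjusted p by limma = 0.00162) and −1.01 ± 0.18 after GC correction (adjusted p = 0.00542). Per length and without GC correction, Hdac3 was the most abundant Hdac in WT at 37.8 ± 1.1 CPM per kb (SD, n = 4). In C2-/- it stood at 16.6 ± 4.9 (SD, n = 3), below Hdac2 at 26.4. GC-corrected means of Hdac3, not scaled to length, were 6.17 log2 CPM in WT and 5.16 in C2-/-. Those of Hdac2 were 6.59 and 5.92. Of 16 listed members of deacetylase complexes, all measured, 3 rose and 4 fell, and after GC correction 3 rose and 1 fell.

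Class IIa deacetylases shuttle between nucleus and cytoplasm and bind MEF2. Hdac5 measured 6.62, 6.54, 6.62 and 5.62 log2 CPM in WT and 4.86, 3.31 and 4.50 in C2-/-. WT replicate 4 stood below the other WT libraries and above every C2-/- library. The change of Hdac5 was −2.13 ± 0.38 (SE, adjusted p by limma = 0.002), a 4.37-fold fall, but −0.58 after GC correction (adjusted p = 0.118). With GC correction Hdac5 stood at −0.70 both without WT replicate 4 and with a replicate block. It passed with the block only (limma, adjusted p = 0.0566 and 0.0412). Its rank per length among the 68 members, taken without GC correction, was 9 in WT and 35 in C2-/-.

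Hdac4, with lower levels, measured 3.11, 3.54, 3.34 and 2.36 log2 CPM in WT and 1.37, 0.39 and 2.88 in C2-/-. The lowest C2-/- library held 3 reads, the groups overlapped, and 22.4% of the exonic bases overlap a gene on the opposite strand. The change of −1.54 ± 0.59 (SE) did not pass (limma, adjusted p = 0.0522). It passed without WT replicate 4, at −1.79, and without C2-/- replicate 3, at −2.21. It was −0.94 after GC correction (adjusted p = 0.257) and −0.96 without C2-/- replicate 2 (adjusted p = 0.148). Hdac7 fell by 1.06 on the log2 scale (limma, adjusted p = 0.0288), and its GC-corrected value was of the opposite sign at +0.50 (adjusted p = 0.251). Hdac9 had a change of 0.51 (adjusted p = 0.349). Omitting WT replicate 1, 2 or 3 or C2-/- replicate 3 ended the call of Hdac7, at −1.03 to −0.75. Of the MEF2 genes, Mef2a and Mef2c rose by 0.97 and 1.04 and Mef2d fell by 1.07 on the log2 scale, while their GC-corrected changes, 0.10, 0.03 and −0.04, did not pass.

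Hdac11, Hdac6 and Hdac10 gave the largest falls of the family from few reads. Hdac11, the only class IV enzyme, held 150, 194, 157 and 17 reads in WT and 6, 0 and 8 in C2-/-. This corresponds to 3.29, 3.70, 3.36 and 1.99 log2 CPM in WT and 1.16, −2.42 and 0.81 in C2-/-, the second of which is the value of 0 reads, and 17.9% of its exonic bases overlap genes on the opposite strand. The change was −3.23 ± 0.84 (SE, adjusted p by limma = 0.0113), with a 95% interval of −5.10 to −1.36, and −1.86 after GC correction did not pass (adjusted p = 0.0951). Without C2-/- replicate 2, the library with 0 reads, it was −2.10 (adjusted p = 0.0119). Hdac6 had 9, 1 and 13 reads in the C2-/- libraries, with a change of −2.40 ± 0.65 (SE, adjusted p by limma = 0.0133) and −1.44 after GC correction, and was −1.59 without C2-/- replicate 2 (adjusted p = 0.0174). Hdac10, a polyamine deacetylase, had 5, 3 and 17 reads and a change of −2.24 ± 0.46 (SE, adjusted p by limma = 0.00372), and −0.94 after GC correction.

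The class I enzymes Hdac1 and Hdac2, which share the NuRD, Sin3 and CoREST complexes, had different values. Hdac1 fell by 1.21 ± 0.40 on the log2 scale (SE, adjusted p by limma = 0.0302) from 2.93 log2 CPM, and lost the call without WT replicate 1, 2 or 3 or C2-/- replicate 1, at −1.22 to −0.93. After GC correction its change of −1.04 did not pass (adjusted p = 0.088), although the groups did not overlap. Hdac2, the more abundant of the pair, measured 5.96, 6.05, 6.03 and 6.80 log2 CPM in WT and 6.46, 6.39 and 6.43 in C2-/-, a change of 0.22 (limma, adjusted p = 0.433) that became −0.67 after GC correction (adjusted p = 0.0238). With WT replicate 4 also left out, the GC-corrected value of −0.54 was short of a 1.5-fold change (adjusted p = 0.0138). Its transcript had a GC content of 41.9%, among the lowest of the list. Hdac8 had a change of −0.71 and did not pass (adjusted p = 0.237).

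Of the 7 sirtuins, NAD-dependent deacylases, Sirt1 rose and Sirt3 and Sirt2 fell. Sirt3, the main mitochondrial deacetylase, measured 4.73, 4.54, 4.96 and 4.02 log2 CPM in WT and 2.51, 0.75 and 2.61 in C2-/-, from 406, 347, 478 and 71 reads and 16, 4 and 29 reads. The groups were more than 1 log2 unit apart, with WT replicate 4 the lowest WT library. The change was −2.61 ± 0.47 (SE, adjusted p by limma = 0.00211), a 6.09-fold fall, and −1.78 ± 0.41 after GC correction (adjusted p = 0.0146). Without C2-/- replicate 2, the library with 4 reads, the uncorrected fall was smaller and kept the call. The rank of Sirt3 per length among the members, taken without GC correction, was 11 in WT and 49 in C2-/-. Overlap with Psmd13 and Ric8a on the opposite strand covers 12.7% of its exonic bases.

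Sirt1, the nuclear sirtuin that deacetylates PGC-1alpha, measured 3.76, 3.87, 3.81 and 4.16 log2 CPM in WT and 4.54, 4.64 and 4.79 in C2-/-. C2-/- stood wholly above WT, and the change of 0.76 ± 0.23 (SE, adjusted p by limma = 0.0223) was 0.11 after GC correction (adjusted p = 0.743). Its call was lost without WT replicate 1, 2 or 3 or C2-/- replicate 3, at 0.69 to 0.75. Sirt2, the most abundant sirtuin at 57.5 CPM per kb in WT, fell by 0.61 ± 0.16 on the log2 scale (SE, adjusted p by limma = 0.012), and stood at −0.50, short of a 1.5-fold change, without C2-/- replicate 2. The GC-corrected value of Sirt2 was of the opposite sign at +0.28 and did not pass (adjusted p = 0.171). Sirt6 measured 2.12, 1.84, 2.70 and 1.26 log2 CPM in WT and −0.95, 2.23 and 1.59 in C2-/-, where 1 library held 1 read. Its change of −1.02 had a 95% interval of −2.69 to 0.65 (limma, adjusted p = 0.279) and did not pass, while with library quality weights it was −1.70 (adjusted p = 0.0492). Without C2-/- replicate 1 it was −0.07 (adjusted p = 0.921). Sirt4, Sirt5 and Sirt7 had changes of −0.37, −0.73 and −0.88 and did not pass.

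The 17 demethylases were evenly divided, with 5 higher and 5 lower. Kdm1b, Kdm6a, Kdm5a, Kdm7a and Kdm5d rose, and Kdm8, Kdm4b, Kdm4a, Kdm1a and Kdm6b fell. The 5 that rose had GC contents of 39.6% to 44.4% and the 5 that fell of 51.7% to 59.6%. After GC correction 1 rose, Kdm6b, and 1 fell, Kdm1a, against 12.3% and 8.33% of all genes.

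Kdm1a and Kdm1b, the flavin-dependent demethylases LSD1 and LSD2, moved apart. Kdm1a measured 4.85, 4.72, 4.77 and 4.61 log2 CPM in WT and 3.80, 2.94 and 3.67 in C2-/-. WT replicate 4 was close to the other WT libraries, and the change was −1.27 ± 0.27 (SE, adjusted p by limma = 0.00441), or −0.82 ± 0.24 after GC correction (adjusted p = 0.0372). The second call was lost with GC and length correction together (−0.72, adjusted p = 0.0577) and with a replicate block and GC correction (−0.81, adjusted p = 0.0612). Kdm1b rose from 5.00, 5.21, 4.96 and 4.52 log2 CPM in WT to 5.80, 6.23 and 6.47 in C2-/-. The change of Kdm1b was 1.24 ± 0.23 (SE, adjusted p by limma = 0.00257), with 0.65 after GC correction (adjusted p = 0.0848), and 9.19% of its exonic bases overlap Dek on the opposite strand. Per length and without GC correction, Kdm1a exceeded Kdm1b in WT, at 8.84 against 6.17 CPM per kb. In C2-/- the values were 3.78 and 14.7 CPM per kb, also without the correction.

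Kdm6a (UTX) and Kdm6b (JMJD3), which remove the Polycomb methyl mark, also differed. Kdm6a, on the X chromosome, measured 4.01, 3.94, 3.72 and 3.61 log2 CPM in WT and 4.09, 5.42 and 4.81 in C2-/-. The lowest C2-/- library stood just above the WT range, and the change of 0.96 ± 0.32 (SE, adjusted p by limma = 0.0326) was 0.14 after GC correction. The call of Kdm6a was kept in 1 of the 7 fits with a library omitted, that without C2-/- replicate 1, and the 6 others gave 0.63 to 1.02. Kdm6b measured 5.76, 5.75, 5.90 and 5.57 log2 CPM in WT and 5.63, 4.43 and 4.77 in C2-/-, where 1 C2-/- library lay inside the WT range. The change of Kdm6b was −0.80 ± 0.27 (SE, adjusted p by limma = 0.034), but 0.83 ± 0.19 after GC correction (adjusted p = 0.0141), and the first call was lost without WT replicate 1, 2 or 3 or C2-/- replicate 2 or 3, at −0.80 to −0.55. Kdm6b had the highest GC content of all members, 59.6%, so its direction is set by how the GC dependence is treated.

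Kdm5a, a demethylase of the promoter mark, rose from 4.44, 4.42, 4.43 and 4.74 log2 CPM in WT to 5.24, 5.34 and 5.44 in C2-/-. All C2-/- values exceeded all WT values, and the change of 0.83 ± 0.20 (SE, adjusted p by limma = 0.00748) was 0.10 after GC correction. Its Y-linked relative Kdm5d, chosen here after its values were seen, measured 3.84, 3.88, 3.62 and 5.80 log2 CPM in WT and 5.57, 5.94 and 5.79 in C2-/-. WT replicate 4 lay within the C2-/- range. The change of Kdm5d was 1.48 ± 0.46 (SE, adjusted p by limma = 0.0249), and 1.99 without WT replicate 4, the only 1 of the 7 omissions that kept the call, with 1.26 to 1.58 in the others. The GC-corrected value of Kdm5d was 0.82 and did not pass (adjusted p = 0.185), while with WT replicate 4 also left out it was 1.26 and passed (adjusted p = 0.0015). Ddx3y and Eif2s3y, other Y-linked genes, had WT replicate 4 at 7.13 and 6.50 log2 CPM, above the 6.56 to 6.70 and 5.71 to 5.89 of the other WT libraries and below C2-/- at 7.84 to 8.12 and 6.93 to 7.21. For Uty, the Y-linked relative of Kdm6a, WT replicate 4 was at 4.61 log2 CPM, within the 4.57 to 4.69 of the other WT libraries, and C2-/- at 5.28 to 5.93. The GC-corrected changes of Ddx3y, Eif2s3y and Uty were −0.22, −0.04 and −0.44 and did not pass.

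Kdm7a, a demethylase with a PHD finger, had a narrow spread, with 5.76, 5.64, 5.59 and 5.64 log2 CPM in WT and 6.25, 6.38 and 6.30 in C2-/-. WT replicate 4 lay among the other WT libraries, and the change was 0.65 ± 0.16 (SE, adjusted p by limma = 0.0076). Its transcript has the lowest GC content of the members, 39.6%, and the GC-corrected value was −0.47 (adjusted p = 0.0656).

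The remaining demethylases that fell did so from GC-rich transcripts. Kdm4b and Kdm4a, whose targets include the heterochromatin methyl mark, fell by 1.84 ± 0.33 and 1.58 ± 0.35 on the log2 scale (SE, adjusted p by limma = 0.00204 and 0.00511), with −0.30 and −0.79 after GC correction. Kdm8, an arginyl hydroxylase, fell by 1.94 ± 0.50 (SE, adjusted p by limma = 0.011) and held 2, 3 and 12 reads in the C2-/- libraries. Kdm2a, Kdm2b, Kdm3a, Kdm3b, Kdm4c, Kdm5b and Kdm5c, the last X-linked, did not pass, with changes from −0.99 in Kdm2b to 0.83 in Kdm3a.

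Of the remodellers, Chd1 and Chd9 rose. Chd1, which spaces nucleosomes in transcribed genes, measured 4.21, 4.42, 4.33 and 5.31 log2 CPM in WT and 5.68, 5.72 and 5.56 in C2-/-. The groups did not overlap, with WT replicate 4 nearer to C2-/- than to the other WT libraries. The change was 1.09 ± 0.28 (SE, adjusted p by limma = 0.00996), with 0.35 after GC correction (adjusted p = 0.307). Chd9 rose from 4.22, 4.38, 4.29 and 4.67 to 4.90, 5.19 and 5.37 log2 CPM, a change of 0.76 ± 0.22 (SE, adjusted p by limma = 0.0184), with 0.25 after GC correction. The call of Chd9 was lost without WT replicate 1, 2 or 3 or C2-/- replicate 3, with changes of 0.66 to 0.76.

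Chd4, the ATPase of the NuRD complex and the most abundant remodeller at 21.3 CPM per kb in WT, measured 7.14, 7.29, 7.18 and 7.02 log2 CPM in WT and 6.86, 6.99 and 6.60 in C2-/-. C2-/- stood wholly below WT, but the change of −0.34 had a 95% interval of −0.69 to 0.01 (limma, adjusted p = 0.101), and the GC-corrected value was 0.34. Chd2, tied to histone H3.3 deposition in myogenic differentiation, had 5.93, 5.75, 5.73 and 5.57 log2 CPM in WT and 5.48, 5.59 and 5.22 in C2-/-. The change of Chd2 was −0.32 (95% interval −0.72 to 0.09, limma, adjusted p = 0.171), and 19.3% of its exonic bases overlap other annotated genes. Chd3, Chd6, Chd7, Chd8 and Chd1l had changes between −0.84 and 0.26 and did not pass. After GC correction 0 of the 9 remodellers passed in limma, against 20.6% of all genes, with 1 lower at an unadjusted p under 0.05.

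Partner genes of these enzymes were counted from lists written with earlier results of these data known. Of 85 listed, 80 were measured, of which 21 rose and 19 fell, or 50% against 45.2% of all genes. After GC correction 13 rose and 5 fell, or 22.5% against 20.6% of all genes. By direction, 20.2% of all genes rose and 25.0% fell, and after GC correction 12.3% rose and 8.33% fell. Among 25 measured genes of other remodelling complexes out of 26 listed, 10 rose and 4 fell, or 56% against 45.2% of all genes. After GC correction 6 of them rose and 0 fell in limma, or 24% against 20.6%, with 0 lower at an unadjusted p under 0.05. Atrx, an ATPase of heterochromatin, rose by 1.55 on the log2 scale (limma, adjusted p = 0.000553), and Smarcd3, the muscle BAF subunit, fell by 1.88 (adjusted p = 0.000334), with 0.41 and −0.30 after GC correction. Of 21 measured methyltransferases outside the member families out of 24 listed, 8 fell and 0 rose in limma, also 0 higher at an unadjusted p under 0.05. The 8 are 38.1%, against 45.2% of all genes. After GC correction 1 rose and 2 fell, or 14.3% against 20.6%. Smyd5 fell in both fits, by 2.69 and by 1.73 with GC correction, and Ehmt2, the euchromatic H3 methyltransferase, fell by 1.82 with a GC-corrected change of −0.06. Of 8 listed COMPASS subunits, all measured, Dpy30 and Ncoa6 rose and Wdr5 fell, and of these Ncoa6 and Wdr5 also passed after GC correction, at 1.06 and −1.32, while Cxxc1 passed after GC correction only, at 1.63.

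The rule did not reach every gene with these functions. The annotation holds 74 protein-coding genes that fit it, of which 3 stand in the table under older symbols and were not counted (Csrp2bp for Kat14, Suv420h1 for Kmt5b and Suv420h2 for Kmt5c), and Chd5, Kdm4d and Setd4 were not analysed here. Setd8, the older symbol of Kmt5a, was counted. Csrp2bp fell by 1.15 (limma, adjusted p = 0.0119) and Suv420h2 fell by 3.13 (adjusted p = 0.0124) on the log2 scale. Their GC-corrected changes of −0.39 and −1.45 did not pass (limma, adjusted p = 0.34 and 0.21). Suv420h2 stood at −0.22, −2.42 and 1.77 log2 CPM in C2-/-, the second of which is the value of 0 reads. Suv420h1 had a change of 0.28.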

How the data were processed

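Libraries were made from oligo(dT)-selected TA muscle RNA (the study's methods give RNA integrity numbers of 8 to 10) and sequenced on DNA nanoballs. The authors aligned reads to GRCm38.p6 with HISAT, counted them per gene with featureCounts 1.5.2 and scaled them with edgeR's TMM factors. The deposited values are log2 CPM with 0.5 reads added, and reads recovered from them were whole (within 0.001) for 100% of values. Whether counting used strand is not given in the sources used here. A second deposited table held the authors' log2 fold changes, p-values, adjusted p-values, mean levels, moderated statistics and log-odds, and none of it was used.

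Here the log2 values of all 12239 genes were fitted with limma 3.58.1 (R 4.3.3; lmFit, eBayes with trend), genotype as the only term, two-sided, with Benjamini-Hochberg adjustment over all genes. The fit was also run on simulated reads with the real library sizes and no GC dependence between libraries. That run cannot show how the fit handles the GC dependence found here. Voom weights, used in the study, were an alternative. Members and lists were chosen with earlier results of these data known. Groups came from the sample titles. GC content and length are those of the longest protein-coding transcript in GENCODE M21 and matched 12173 genes, 99.5%. The GC correction fitted a natural spline with 5 degrees of freedom to each library and replaced it by the mean curve. Named members were a list of 19 enzymes known in muscle, the 3 largest rises and falls in each class among members past the threshold with non-overlapping groups and a higher-group average of log2 1 or more, and those past the threshold in both fits, 32 in all. Other members are named where a class or family is accounted for.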

Additional observations from a re-analysis of the deposited data

Results flagged for a closer look

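In 7 of the 32 named members, 1 WT library stood farther from the other 3 than Dixon's 95% critical value for 4 samples allows, and in all 7 it was WT replicate 4. Chance flags about 1 in 20 such groups, or 1.6 of 32. WT replicate 4 was higher than the range of the others in log2 CPM for Crebbp (5.77 against 3.85 to 4.02), Ep300 (7.03 against 5.70 to 5.88), Setd7 (9.62 against 8.54 to 8.68) and Kdm5a (4.74 against 4.42 to 4.44). It was lower for Hdac5 (5.62 against 6.54 to 6.62), Ezh1 (5.09 against 5.54 to 5.61) and Ezh2 (2.15 against 2.77 to 2.87). Only for Setd7 among these 7 did it lie within the C2-/- range. Over all 68 members, 16 (23.5%) were set apart in this way, again each time by WT replicate 4, where chance gives 3.4. Over all 12239 genes of the table it was 2115 (17.3%), of which 1966 were set apart by WT replicate 4.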

How the results depend on the processing

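The 34 members past the threshold became 25 to 38 when 1 library was left out, with none reversed, and 24 of the 34 kept the call in all 7 such fits. Leaving out WT replicate 1, 2 or 3 each ended the same 9 calls (Chd9, Hdac1, Hdac7, Kat2a, Kat7, Kdm5d, Kdm6a, Kdm6b and Sirt1). WT replicate 4 ended 1, C2-/- replicates 1 and 2 ended 4 each and C2-/- replicate 3 ended 8, while 11 other members passed in at least 1 of these fits, and the remodellers past the threshold ranged from 1 to 3. Counts of members moved to 11 with GC correction, 10 with GC and length correction, 16 with GC correction without WT replicate 4, and 17 at adjusted p under 0.01. With library quality weights 42 members passed, 16 higher and 26 lower. For the writers the counts were 6 with GC correction, 6 with GC and length correction and 6 at the stricter p, for the erasers 5, 4 and 10, and 5 with GC correction without WT replicate 4, and for the remodellers 0, 0 and 1, and 0.

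Among the 32 named members, signs turned with GC correction, with GC and length correction and with GC correction without WT replicate 4 for Kdm6b (0.83, 0.87, 0.90), Kmt2d (1.15, 1.04, 1.48), Sirt6 (0.48, 0.46, 0.35), Chd4 (0.34, 0.37, 0.36) and Setd1a (0.42, 0.46, 0.46), and with the last alone for Kdm6a (−0.00056). Of the members called without correction but not on that list, Kat2a (0.60), Hdac7 (0.50), Sirt2 (0.28) and Kdm7a (−0.47) also turned with GC correction. Crebbp, near 0, turned to 0.17 with voom weights, 0.39 with library quality weights, 0.12 with quantile normalization, 0.13 with median centring, 0.44, 0.41 and 0.94 in the 3 GC settings, and ranged from −0.21 to 0.43 when 1 library was left out.

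The labels do not say whether replicate numbers pair the libraries. Deviations of same-numbered libraries correlated at 0.053, −0.064 and −0.053. Those of different-numbered ones ran from −0.108 to 0.120, a range that holds all the same-numbered values, so the check does not decide it. A replicate block gave 38 members past the threshold, and 16 with GC correction (5 erasers, 0 remodellers). WT replicate 4 has no partner, so the log2 changes under the block are those without it (Crebbp 0.43). With the block and GC correction, Kdm6b was at 0.90, Kmt2d 1.48, Sirt6 0.35, Chd4 0.36, Setd1a 0.46, Crebbp 0.94 and Kdm6a −0.00056.

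The planned edgeR and DESeq2 fits were not run, and the recovered reads were fitted with voom weights in limma. Depth limits the low members: 6 had a library with 3 reads or fewer.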
